A study of Mus musculus with 4 samples.

Results

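The BCL2 family genes that set whether a cell lives or dies were measured as transcripts in activated mouse CD8+ T cells grown with or without butyrate. The 10 genes were chosen by symbol from the 32285 genes counted: the survival genes Bcl2, Bcl2l1, Mcl1 and Bcl2a1b, the BH3-only death genes Bcl2l11, Bbc3, Pmaip1 and Bid, and the effectors Bax and Bak1. All 10 passed the filter on low counts in each fit reported here. The cells came from spleens of transgenic gBT-I.CD45.1 mice, whose CD8+ T cells mostly carry 1 T cell receptor for a herpes simplex virus glycoprotein B peptide. They were activated with B6 splenocytes loaded with that peptide and 6 µg LPS, and from day 2 they were expanded in recombinant human IL-2 at 12.5 U/ml. Control cultures received PBS, and treated cultures received sodium butyrate (0.5 mM), the salt of a fatty acid that bacteria of the gut release from fibre, between day 3 and day 5. On day 6, after the treatment had ended, live CD8+Vα2+ cells were sorted and profiled by droplet 3′ single-cell RNA sequencing. Each group had 2 libraries, from mouse 2 and mouse 3, so both treatments were seen in cells of the same mice, and all 4 libraries carry the same batch label. The age and sex of the mice were not given in the sources used here. Every culture shared the IL-2, the LPS and the single receptor specificity, which limits what the cultures stand for.

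The BCL2 family controls the mitochondrial pathway of apoptosis. Survival proteins (BCL2, BCL-XL from Bcl2l1, MCL1 and A1 from the Bcl2a1 genes) hold BAX and BAK in check, BH3-only proteins (BIM from Bcl2l11, PUMA from Bbc3, NOXA from Pmaip1, and BID) bind the survival proteins or trigger the effectors, and BAX and BAK open the outer mitochondrial membrane, which releases cytochrome c. In activated T cells, BIM is the main driver of death after the response peaks, IL-2 and IL-7 signals sustain BCL2 and MCL1, and PUMA and NOXA are p53 targets. The transcript levels below say nothing of protein, on which much of this control acts.

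In the GRCm38 annotation (GENCODE M21) all 10 are protein-coding genes. The survival genes are Bcl2 on chromosome 1 (106538178 to 106714274, minus strand), Bcl2l1 on chromosome 2 (152780668 to 152831728, minus strand), Mcl1 on chromosome 3 (95658788 to 95663176, plus strand) and Bcl2a1b on chromosome 9 (89199209 to 89207827, plus strand). The BH3-only genes are Bcl2l11 on chromosome 2 (128126038 to 128162547, plus strand), Bbc3 on chromosome 7 (16308393 to 16318205, plus strand), Pmaip1 on chromosome 18 (66458533 to 66465565, plus strand) and Bid on chromosome 6 (120891930 to 120916853, minus strand). The effectors are Bax on chromosome 7 (45461697 to 45466898, minus strand) and Bak1 on chromosome 17 (27019810 to 27029009, minus strand). Bcl2, Bid and Bak1 each overlap a counted gene on the opposite strand, namely D630008O14Rik (0 to 7 UMIs per library), Bcl2l13 (657 to 787 UMIs) and Ggnbp1 (36 to 87 UMIs).

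The 4 libraries held 64388093 to 76522004 unique molecular identifiers (UMIs, each counting 1 captured transcript molecule), and 2059 to 2664 cells per library were kept, 9915 in all. Of the kept barcodes, 17 occurred in more than 1 library. The 8 CD8 T cell markers summed to 8677 to 10624 CPM (UMIs for every 1000000 UMIs of the library), and all 8 were detected. Summed B cell markers stood at 145 and 149 CPM in the control libraries and 44.8 and 45.1 in the butyrate libraries, nearly all Ighm, while Cd79a gave at most 5 UMIs per library and Ms4a1 at most 1. Summed NK markers went the other way (8.94 and 10.7 against 44.7 and 53.7), mainly through Tyrobp, with Ncr1 at 0 to 2 UMIs, and summed myeloid markers were 2.17 and 2.63 against 12.9 and 14.4, with C1qa, C1qb and Adgre1 at 0 everywhere. Dendritic, CD4 or regulatory T and erythroid or platelet lists summed to at most 10.1 CPM in any library. The part of these markers in the results below was not tested.

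Levels below are CPM scaled by edgeR's TMM factors, in the order control mouse 2, control mouse 3, butyrate mouse 2, butyrate mouse 3. Since a 3′ protocol counts each transcript molecule once, they are not divided by transcript length. Differences are log2 fold changes with their standard error (SE), and p-values are from edgeR's quasi-likelihood test, adjusted over all genes tested by the Benjamini-Hochberg method, with a threshold of 0.05.

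Among the survival genes, butyrate cultures held less Bcl2 and more Bcl2a1b. Bcl2 stood at 359, 323, 284 and 279 CPM, so that both butyrate libraries lay under both control libraries. It fell by 0.28 on the log2 scale (SE 0.05, adjusted p = 0.000164). Bcl2a1b, a short-lived survival factor induced by T cell receptor and NF-kB signals, stood at 18.3, 18.7, 42.4 and 47.7. The groups were far apart, and the rise was 2.43-fold (log2 1.28, SE 0.06, adjusted p = 1.59e-10). Bcl2a1b shares long stretches with some other Bcl2a1 genes: of the 50-base words in the last 500 bases of the Bcl2a1b transcript, 66.7% also occur in Bcl2a1d and 45.7% in Bcl2a1a, so the split of reads among them is uncertain. Bcl2a1d, counted apart, rose too (4.09, 4.17, 12.1 and 13.7; log2 1.64, SE 0.09). Mcl1, which encodes a survival protein that T cells need throughout life, was slightly higher (103, 102, 117 and 121; log2 0.22, SE 0.04, adjusted p = 0.000191). The Bcl2l1 groups were close together (20.1, 19.9, 22.8 and 21.2), with a difference of 0.14 (SE 0.06, adjusted p = 0.0364). Scaling by library totals alone shifted the median log2 difference of all genes by -0.20, and on that scale Mcl1 did not pass (0.02, adjusted p = 0.64) and Bcl2l1 changed sign (-0.06, adjusted p = 0.36). Leaving out control mouse 2, control mouse 3 or butyrate mouse 2 also ended the Bcl2l1 call, with adjusted p of 0.078, 0.11 and 0.31, as did DESeq2 (0.13).

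Of the 4 BH3-only genes, 3 rose and Bbc3 fell. Pmaip1 stood at 6.02, 6.61, 15.9 and 15 CPM. Both butyrate libraries exceeded both controls, and the rise was 2.44-fold (log2 1.29, SE 0.07, adjusted p = 7.35e-10). Bid, which death receptor signals cleave into an active form, stood at 10.6, 11.2, 18.4 and 18.3 and rose by 0.74 (SE 0.06, adjusted p = 3.86e-08). Bcl2l11 stood at 34.5, 33.7, 47.7 and 46.3 and rose by 0.46 (SE 0.05, adjusted p = 4.59e-07). Bbc3 moved against the other 3, at 20.1, 20.7, 11.6 and 12.1. It was 1.73-fold lower in the butyrate cultures (log2 -0.79, SE 0.06, adjusted p = 1.32e-08), although Pmaip1, like it a p53 target, was higher.

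The effectors also moved apart. Bax stood at 184, 209, 252 and 255 CPM and rose by 0.37 (SE 0.05, adjusted p = 4.61e-05). Bak1 stood at 73.3, 79.4, 65.4 and 65.7 and was lower by a small margin (log2 -0.22, SE 0.05, adjusted p = 0.000641), a call lost when every cell was thinned to 8000 UMIs (-0.13, adjusted p = 0.066). In total 7 of the 10 genes were called higher and 3 lower, and for none did the 2 groups overlap. Both were common in these cultures: the groups did not overlap for 85.9% of the 13487 genes tested (42.6% higher, 43.3% lower), and 71.8% were called, 36.0% higher and 35.7% lower, and by library totals alone the split was 3395 higher against 6710 lower. The median difference was 0.29 for the 10 genes and -0.0079 for all genes tested.

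**Figure D1:**
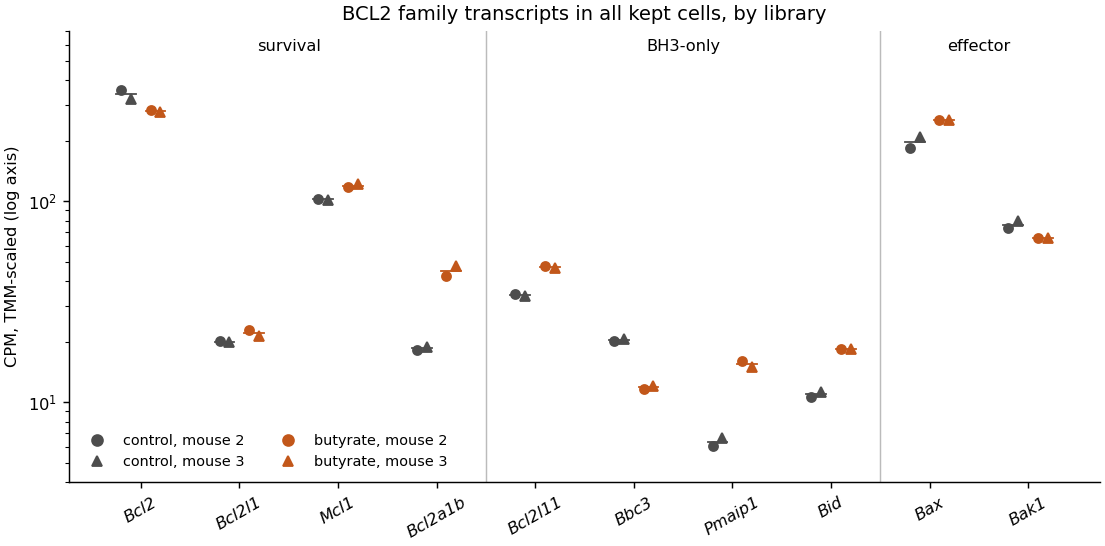
Level of each gene in CPM (log axis) in each library, with survival, BH3-only and effector genes separated by vertical lines; circles are mouse 2, triangles mouse 3, and short lines are the means of 2 libraries. Bcl2a1b, Pmaip1 and Bid are higher and Bbc3 lower in both butyrate libraries, while the Bcl2l1 points nearly meet.

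Levels differed by more than an order of magnitude within the family. In control cultures the order of mean levels was Bcl2 (341 ± 25.0, SD, n = 2), Bax (197), Mcl1 (102), Bak1 (76.3), Bcl2l11 (34.1), Bbc3 (20.4), Bcl2l1 (20), Bcl2a1b (18.5), Bid (10.9) and Pmaip1 (6.31), and of neighbours only Bbc3 and Bcl2l1 overlapped between libraries. In butyrate cultures Bcl2 (281 ± 3.35) and Bax (253) stood close together at the top, and Bcl2l11 (47.0) and Bcl2a1b (45.1) overlapped. Bbc3 took the last place there at 11.8, under Pmaip1 at 15.5.

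Cell cycle phase was called per cell from S and G2M gene scores after each cell was thinned to 8000 UMIs. G1 held 16.3%, 15.7%, 17.3% and 18.3% of cells, S phase 19.2%, 20.7%, 31.6% and 31.1%, and G2M 64.4%, 63.6%, 51.0% and 50.5%. A phase called from scores is a range and not a cell type: the share of cells within 0.05 of a score cut was 8.05% and 8.65% in the control libraries, against 18.3% and 17.4% with butyrate. G1 cells of butyrate cultures also held more UMIs (medians 18559 and 17456 against 12459 and 12164) and more S-list UMIs per thinned cell (12.8 and 11.4 against 6.48 and 6.62).

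Of the 10 genes, Bbc3 differed most between G1 and cycling cells of the control cultures. Its G1 level was 61.8 and 75.3 CPM in control libraries against 16.6 and 17 in butyrate libraries. In S phase it was 14.5 and 12.8 against 9.66 and 10.6, and in G2M 15.7 and 15.8 against 11.0 and 11.1. Control G1 cells thus stood alone at a high level, and the butyrate G1 cells were close to the cycling cells. Within G1, Bbc3 was 4.01-fold lower with butyrate (log2 -2.00, SE 0.12, adjusted p = 5.53e-10), against -0.41 (SE 0.12) within S and -0.52 (SE 0.07) within G2M. The S-phase call was lost after thinning (-0.17, adjusted p = 0.49), in cells of 10000 to 20000 UMIs (-0.45, adjusted p = 0.17) and without butyrate mouse 2 (adjusted p = 0.051). Against G1 of the same libraries, control Bbc3 was 5.08-fold lower in S (log2 -2.34, SE 0.10) and 4.37-fold lower in G2M (-2.13, SE 0.08), while the butyrate values were -0.73 (SE 0.12) and -0.61 (SE 0.11). The interaction, the S or G2M difference from G1 in butyrate minus that in control, was 1.62 for S (SE 0.16, adjusted p = 6.26e-13) and 1.52 for G2M (SE 0.13, adjusted p = 8.96e-15).

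Among G1 cells of 10000 to 20000 UMIs the Bbc3 difference was -2.04. Among the 114 to 201 thinned cells per library with no UMI of the cycling genes Mki67, Top2a and Pcna it was -1.99. The S list was matched in neither set, and its part was not tested. Droplets of 1 to 100 UMIs, which hold free RNA, carried Bbc3 at 28.1 and 30.4 unscaled CPM in control and 12.1 and 11.8 in butyrate libraries. In each treatment that lies under the level of G1 cells and above those of S and G2M cells. The part of free RNA in the Bbc3 differences was not tested.

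Bcl2l11, the other BH3-only gene high in control G1, had no called difference there. Its G1 levels were 69.5, 70.6, 64.9 and 62.2 CPM, and the difference between treatments within G1 was -0.11 (SE 0.09, adjusted p = 0.277). By library totals alone it passed (-0.22, adjusted p = 0.042), and in cells of 10000 to 20000 UMIs its sign turned (0.11, adjusted p = 0.43). In S phase it stood at 29.1, 30.8, 41.7 and 40.3, and in G2M at 30.3, 28.1, 44.3 and 42.6. Butyrate cells therefore held more Bcl2l11 outside G1, by 0.46 (SE 0.08) within S and 0.57 (SE 0.06) within G2M. In control cultures the step from G1 was -1.22 to S and -1.27 to G2M, in butyrate cultures -0.63 and -0.55, with interactions of 0.59 (SE 0.10, adjusted p = 3.32e-06) and 0.72 (SE 0.09, adjusted p = 1.79e-09).

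Over all G1 cells, Bbc3 and Bcl2l11 were the 2 genes most raised in control G1 against cycling cells. In cells of 10000 to 20000 UMIs Bcl2a1b fell further from G1 (-1.57 to S and -1.53 to G2M) than Bcl2l11 (-1.18 and -1.13). Promoters of Bbc3 and Bcl2l11 are shown, as RefSeq gives them on GRCm38.p6, with 250 bases before each start. RefSeq promoters were matched for 9 of the 10 genes, all but Pmaip1, and numbered 14 in all. The letters GTAAACA, a common form of the FOXO and other forkhead binding motif, were searched on both strands of these 250 bases and are in capitals. They occur in 3.17% of 32851 mouse promoters, and among the 9 genes searched in 1 of 3 Bbc3 promoters and 1 of 2 Bcl2l11 promoters, once each; these are the ones printed. The printed Bcl2l11 promoter (plus strand) is chr2:128125788-128126037, with the motif 227 to 221 bases before the start, and the printed Bbc3 promoter (plus strand) is chr7:16310011-16310260, with its reverse complement 167 to 161 bases before the start. The Bbc3 window lies inside the longer GENCODE gene and touches none of its exons, so it is intronic there, and the Bcl2l11 window lies just upstream of its gene.
Bcl2l11: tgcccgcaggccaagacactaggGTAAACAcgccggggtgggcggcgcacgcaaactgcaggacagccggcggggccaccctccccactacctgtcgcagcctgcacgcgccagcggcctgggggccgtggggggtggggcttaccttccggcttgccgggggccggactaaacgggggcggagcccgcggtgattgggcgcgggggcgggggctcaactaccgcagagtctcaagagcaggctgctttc
Bbc3: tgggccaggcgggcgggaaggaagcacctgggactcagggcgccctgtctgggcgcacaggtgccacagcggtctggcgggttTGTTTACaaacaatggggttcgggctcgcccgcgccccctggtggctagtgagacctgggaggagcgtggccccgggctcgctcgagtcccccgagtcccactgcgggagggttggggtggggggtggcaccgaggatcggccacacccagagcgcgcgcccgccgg
A match is a description of letters and not a bound site. The other motifs searched did not overlap these matches. GGGCGG (Sp and KLF factors) is in 32.7% of promoters and in 7 of the genes, CCAAT in 33.8% and in both Bcl2l11 promoters and 1 of Bbc3, and CACGTG (E-box) in 6.02% and in Bax and 1 promoter of Bbc3. Neither CCAAT nor CACGTG is in the Bbc3 promoter printed here. TATAAA is in 12.4% and TTCNNNGAA (STAT) in 7.02%, with no match among the 9 genes searched. The p53 half-site is in 7.13% and, of those 9, in Bax.

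Of the other BH3-only genes, Pmaip1 and Bid were higher with butyrate in every phase. Pmaip1 in G1 stood at 6.20, 6.12, 19.3 and 16.9 CPM, a 2.99-fold rise (log2 1.58, SE 0.18, adjusted p = 1.37e-06), and it rose by 1.40 within S and 1.11 within G2M. Its level hardly changed with phase in control cells (S against G1 0.13, SE 0.21, adjusted p = 0.614). Bid in G1 stood at 8.41, 6.68, 22.4 and 17.6, a rise of 1.44 (SE 0.19, adjusted p = 5.47e-06), against 0.59 within S and 0.65 within G2M. In cells of 10000 to 20000 UMIs the Bid difference within S did not pass (0.28, adjusted p = 0.37). Its interactions were -0.84 for S (SE 0.21, adjusted p = 0.00092) and -0.76 for G2M (SE 0.20, adjusted p = 0.00149). Both interactions lost their call after thinning (-0.49, adjusted p = 0.25, and -0.48, adjusted p = 0.23) and without control mouse 3 (-0.55, adjusted p = 0.16, and -0.57, adjusted p = 0.11). That of G2M was also lost without butyrate mouse 2 (-0.55, adjusted p = 0.06) and in cells of 10000 to 20000 UMIs (-0.15, adjusted p = 0.84).

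Among the survival genes, Bcl2l1 differed between treatments in G1 and did not pass in S or G2M. It stood at 13.5, 11.9, 29.7 and 22.4 CPM in G1, 19.1, 17.7, 19.5 and 20.2 in S, and 20.4, 20.9, 22.0 and 20.6 in G2M. The groups were apart in G1, close together in S and overlapping in G2M. Within G1 it was 2.1-fold higher with butyrate (log2 1.07, SE 0.17, adjusted p = 3.34e-05), within S 0.12 (SE 0.10, adjusted p = 0.29) and within G2M 0.04 (SE 0.06, adjusted p = 0.601). The G2M value passed in opposite directions under 2 alternatives, at 0.39 in cells of 10000 to 20000 UMIs (adjusted p = 0.024) and at -0.15 by library totals alone (adjusted p = 0.045). The direction from G1 to cycling cells was opposite in the 2 treatments: S against G1 was 0.54 (SE 0.15) in control and -0.39 (SE 0.10) in butyrate. The interactions were -0.93 (SE 0.18, adjusted p = 1.46e-05) for S and -1.0 (SE 0.16, adjusted p = 5.68e-07) for G2M. Without butyrate mouse 2, the fall from G1 to S in butyrate cells did not pass (-0.15, adjusted p = 0.5).

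Bcl2 kept nearly the same treatment difference in each phase. Its G1 levels were 431, 383, 331 and 326 CPM, and its S levels 344, 312, 266 and 263. Butyrate cells lay lower in each phase, by 0.28 (SE 0.07) within G1, 0.30 (SE 0.05) within S and 0.29 (SE 0.05) within G2M. S cells lay under G1 cells by 0.31 in both treatments, with an interaction of -0.00 (SE 0.05, adjusted p = 0.99) that passed by library totals alone (-0.17, adjusted p = 0.0091). In cells of 10000 to 20000 UMIs the treatment difference was smaller and passed in no phase (-0.12, adjusted p = 0.29 in G1, -0.19 and 0.082 in S, -0.17 and 0.073 in G2M). The G1 call also failed without control mouse 2 (-0.20, adjusted p = 0.084).

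Bcl2a1b rose in every phase with butyrate, by 0.85 (SE 0.13) within G1, 1.65 (SE 0.09) within S and 1.17 (SE 0.07) within G2M. Its levels were 30.5, 33.4, 49.4 and 63.7 CPM in G1 and 17.8, 14.4, 48.1 and 51.1 in S. Control cells dropped by 1.01 on the log2 scale from G1 to S (SE 0.12), whereas the butyrate cells nearly kept their G1 level (-0.19, SE 0.07, adjusted p = 0.03), a step that did not pass without butyrate mouse 3 (-0.04, adjusted p = 0.84). The interaction was 0.82 (SE 0.14, adjusted p = 2.04e-06). In G1 cells of 10000 to 20000 UMIs the treatment difference did not pass (0.11, adjusted p = 0.58).

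Mcl1 stood at 152, 136, 127 and 141 CPM in G1, where the groups overlapped (log2 -0.07, SE 0.08, adjusted p = 0.448). In S it stood at 89.2, 90.8, 111 and 116 and was higher with butyrate by 0.34 (SE 0.06), and in G2M by 0.24 (SE 0.04). These differences did not pass when libraries were scaled by totals alone (0.09, adjusted p = 0.18, and 0.04, adjusted p = 0.39).

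Bax stood at 164, 184, 275 and 277 CPM in G1, and the treatment difference there (0.69, SE 0.07, adjusted p = 3.45e-07) exceeded those within S (0.25, SE 0.05) and G2M (0.34, SE 0.06). The interactions were -0.43 for S (SE 0.06, adjusted p = 5.82e-08) and -0.32 for G2M (SE 0.06, adjusted p = 8.88e-06), and in cells of 10000 to 20000 UMIs they were -0.17 (adjusted p = 0.31) and -0.23 (adjusted p = 0.12). By library totals alone the difference within S was -0.00. Bak1 was even in G1 (56.9, 63.0, 62.0 and 62.7; log2 0.08, SE 0.09, adjusted p = 0.452) and lower with butyrate within S (-0.35, SE 0.07) and G2M (-0.19, SE 0.05). The G2M call was lost after thinning (-0.12, adjusted p = 0.14) and in cells of 10000 to 20000 UMIs (-0.18, adjusted p = 0.13). The Bak1 interactions were -0.41 (SE 0.09, adjusted p = 0.000328) and -0.24 (SE 0.09, adjusted p = 0.0246), the latter lost without any of the 4 libraries (adjusted p of 0.063 to 0.093).

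**Figure D2:**
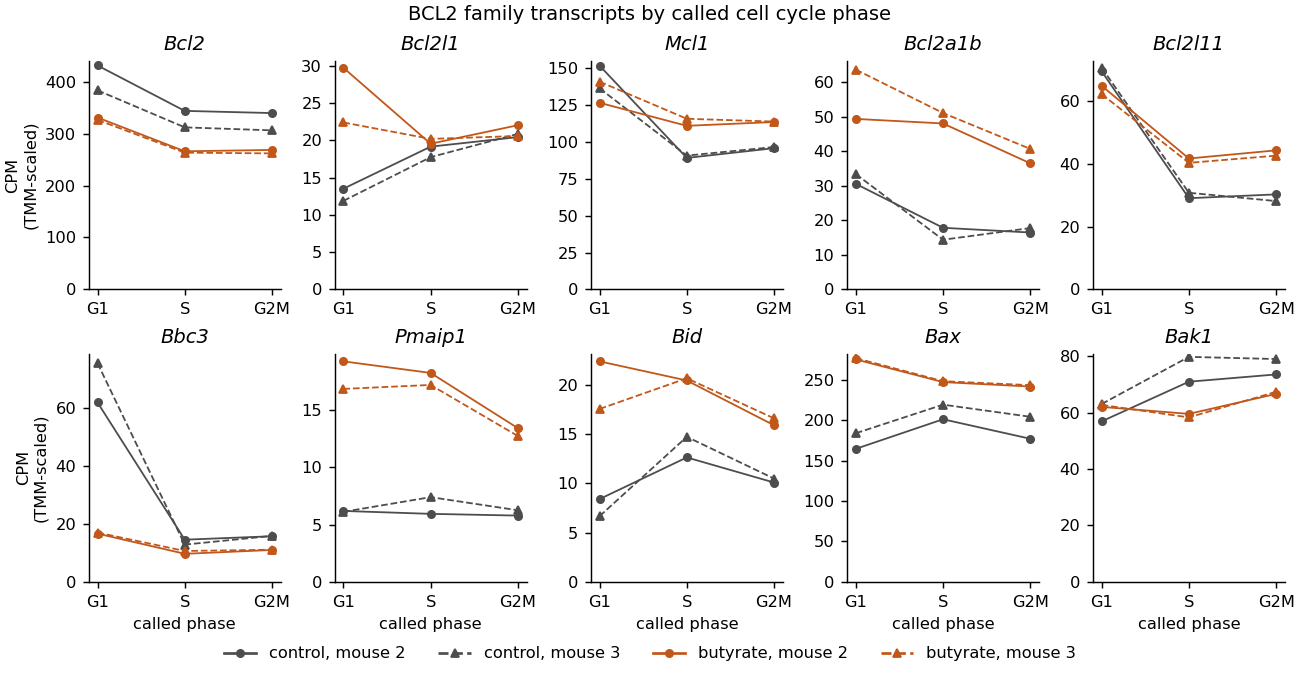
Level of each gene in CPM (linear axis from 0) in cells called G1, S or G2M, with 1 line per library; grey is control, orange butyrate, circles with solid lines mouse 2 and triangles with dashed lines mouse 3. Control G1 cells stand alone for Bbc3 at 61.8 and 75.3. For Bcl2l1, Bcl2a1b, Pmaip1, Bid and Bax the G1 cells of butyrate cultures lie above those of control cultures.

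Counts of calls by phase were as follows. Within G1, 5 of the 10 genes rose with butyrate and 2 fell, with 58.1% of 10769 genes called (29.4% higher, 28.7% lower). Within S, 6 rose and 3 fell (56.8% of genes called, 29.1% higher and 27.7% lower), and within G2M likewise 6 rose and 3 fell (69.3% called, 34.7% higher and 34.5% lower). In control cells 4 genes were higher and 5 lower in S than in G1 (59.9% of genes called, 28.2% higher and 31.7% lower), and 4 higher and 5 lower in G2M than in G1 (59.8% called, 28.3% higher and 31.5% lower). In butyrate cells no gene was higher in S and 7 were lower (35.4% of genes called, 19.0% higher and 16.3% lower), and no gene was higher in G2M and 9 were lower (43.1% called, 22.5% higher and 20.6% lower). Averaged over both treatments, 2 genes were higher and 5 lower in S (60.8% called, 29.1% higher and 31.7% lower), and 2 higher and 6 lower in G2M (61.7% called, 30.1% higher and 31.7% lower). Neither count of 0 changed at an unadjusted p under 0.05. The count of genes lower in G2M of butyrate cells is less firm. With 1 library left out, the smallest falls there were -0.079 for Bid, -0.12 for Bcl2l1 and -0.16 for Mcl1. The interactions passed for 4 genes in each direction for S (38.3% of genes, 20.3% positive and 18.0% negative) and 4 in each direction for G2M (37.3%, 20.2% positive and 17.1% negative). Single libraries moved some of these counts: without control mouse 2, 1 gene fell within G1, and without control mouse 3, 2 genes were higher in G2M than in G1 of control cells. The count of negative G2M interactions was 2 without control mouse 3 or butyrate mouse 2.

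**Figure D3:**
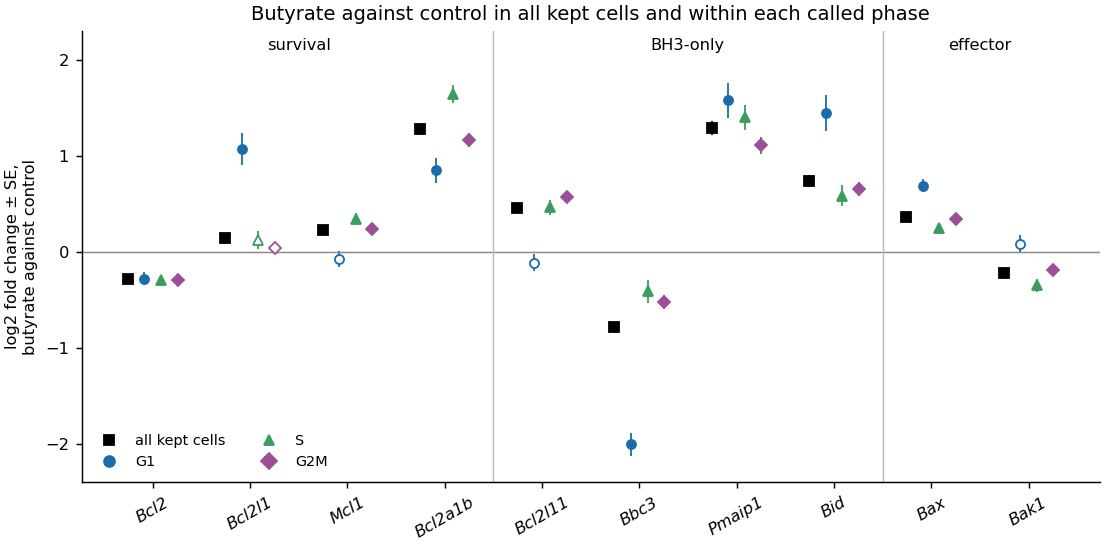
Log2 fold change of butyrate against control with its SE (vertical axis) for each gene in all kept cells and within G1, S and G2M cells; open symbols have an adjusted p of 0.05 or more. Bbc3 in G1 is the lowest point at -2.00, and Pmaip1, Bid and Bcl2a1b lie above 0 in each phase.

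To describe the balance, UMIs of the 4 survival genes were summed and divided by those of the 4 BH3-only genes, or by those of the 6 death genes, in each library. No test was made of these sums. The ratio of survival to BH3-only UMIs was 7.01 and 6.41 in control libraries and 4.98 and 5.12 in butyrate libraries (6.71 ± 0.421 against 5.05 ± 0.0984, SD, n = 2 each). The ratio to all death UMIs was 1.52 and 1.29 against 1.13 and 1.14. Both ratios were lower in both butyrate libraries. Bcl2 supplied 71.8% and 69.7% of survival UMIs in control and 60.8% and 59.4% in butyrate cultures, so the sums follow this gene. Without Bcl2 the ratio to death UMIs was not lower with butyrate, at 0.409 in control and 0.453 in butyrate cultures. The ratio to BH3-only UMIs was not taken without Bcl2.

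In the BH3-only sum, the share of Bbc3 was lower and those of Pmaip1 and Bid higher in both butyrate libraries. Bbc3 made up 28.2% and 28.7% of BH3-only UMIs in control libraries and 12.4% and 13.2% in butyrate libraries. Pmaip1 made up 8.45% and 9.13% against 17% and 16.4%, and Bid 14.9% and 15.6% against 19.6% and 19.9%, while Bcl2l11 kept a similar share (48.4%, 46.7%, 50.9% and 50.5%). In G1, the Bbc3 share was 42.3% and 47.4% in control and 13.5% and 14.9% in butyrate cells.

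By phase, the ratio of survival to BH3-only UMIs was lowest in control G1 cells, at 4.3 and 3.56. Control S cells stood at 7.56 and 6.62 and control G2M cells at 7.63 and 7.27. Butyrate cells varied less, at 4.36 and 4.87 in G1, 4.93 and 5.07 in S and 5.21 and 5.26 in G2M. The ratio was lower with butyrate in S and G2M cells, and in G1 the butyrate cells lay above the control cells. Against all death genes, Bax included, G1 cells stood at 1.71 and 1.39 in control and 1.17 and 1.22 in butyrate cultures. Bcl2 supplied 58.5% to 73.1% of survival UMIs in the sums of library and phase, so the survival sums rest mostly on this gene. The low ratio to BH3-only UMIs in control G1 cells did not follow it. Their survival sum was the highest of the control phases (602 and 550 unscaled CPM against 515 and 487 in S). Their BH3-only sum was higher too, at 140 and 154 against 68.1 and 73.6 in S.

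**Figure D4:**
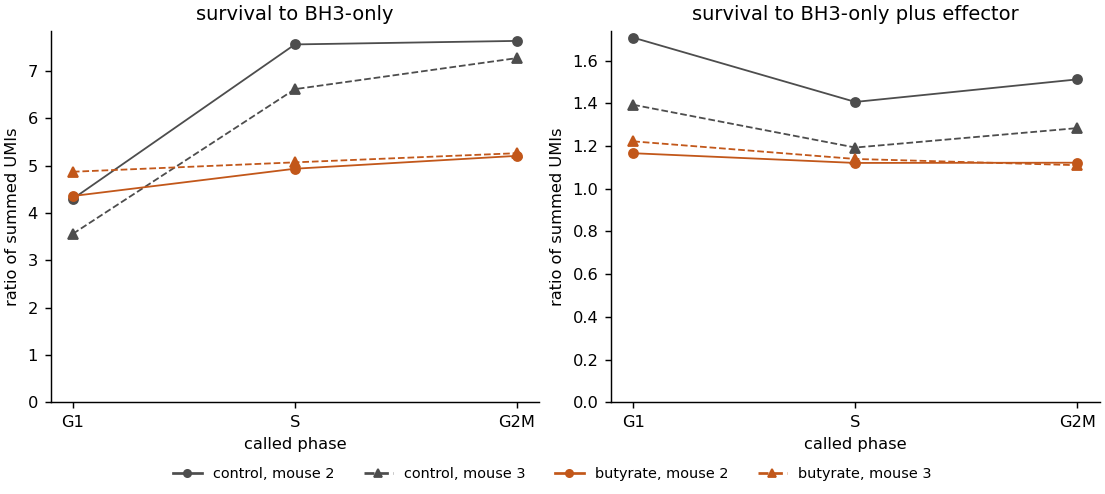
Ratio of summed survival UMIs to BH3-only UMIs (left) and to BH3-only plus effector UMIs (right) by called phase, 1 line per library, axes from 0. Control cells step up from about G1 values of 4.3 and 3.56 to 7.56 and 6.62 in S on the left, while the butyrate lines stay between 4.36 and 5.26.

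Detection was compared in single cells thinned to 8000 UMIs. The share of cells with a Bbc3 UMI was 16.9%, 17.3%, 8.5% and 8.78%, and with a Pmaip1 UMI 5.28%, 5.75%, 11.4% and 11.1%. Bcl2a1b was seen in 12.4%, 13.8%, 21.8% and 26.4% of cells. In 9 of the 10 genes the 2 groups did not overlap, 6 higher and 3 lower with butyrate, against 79.9% of all genes tested (29.5% higher, 50.4% lower), and Mcl1 overlapped at 58.5% ± 0.727 against 58.3% ± 0.430 (SD, n = 2). With 2 libraries against 2, the exact two-sided permutation test cannot go below p = 0.33. As background, Cd79a, a B cell gene, had a UMI in 0.0397% to 0.0798% of the same cells. Without thinning the Bcl2 share was 96.6% in control and 97.6% in butyrate cultures, where cells held more UMIs, against 88.0% and 83.0% at equal depth.

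Cells holding both a Bbc3 and a Bcl2l11 UMI made up 5.99% and 5.91% of the thinned cells in control libraries, against 2.83% and 2.66% in butyrate libraries. In G1 these shares were 14.8% and 18.2% against 5.99% and 3.99%. Cells with more BH3-only than survival UMIs made up 4.43%, 4.68%, 4.95% and 5.66% of all thinned cells, and 8.62%, 9.60%, 6.91% and 6.30% of those in G1, whereas those with more death than survival UMIs made up 24.6%, 30.3%, 34.5% and 35.3% of all thinned cells.

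CD127, the IL-7 receptor alpha chain encoded by Il7r, marks T cells likely to persist as memory cells, and the series' title names CD127+CD8+ T cells. Thinned cells were split by whether they held an Il7r UMI (555, 655, 716 and 794 positive cells). In control cultures Il7r-positive cells held Bbc3 at 35.7 and 43.7 CPM against 19.2 and 19.3 in negative cells. They were also higher in Bcl2l11 (59.5 and 54.6 against 33.6 and 33.2) and Mcl1 (131 and 123 against 99.3 and 96.3). The differences were 1.06 for Bbc3 (SE 0.10, adjusted p = 3.99e-24), 0.77 for Bcl2l11 (SE 0.08, adjusted p = 3.04e-19) and 0.38 for Mcl1 (SE 0.05, adjusted p = 3.28e-11). Bcl2l1 was lower (-0.68, SE 0.14, adjusted p = 3.78e-06), as was Bax (-0.38, SE 0.05, adjusted p = 2.53e-15), and Bcl2 itself differed by -0.05 (SE 0.03, adjusted p = 0.213), a value that passed without G1 cells (-0.10, adjusted p = 0.04) and by library totals alone (-0.10, adjusted p = 0.0089). In all, 4 genes were higher and 4 lower, with 37.7% of 11412 genes called (18.6% higher, 19.1% lower). The counts include Bcl2a1b (0.48) and Bid, whose calls are less firm. With 1 library left out, the Bcl2a1b difference ranged from 0.37 to 0.62 and that of Bid from -0.56 to -0.39.

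In butyrate cultures these differences were small. Il7r-positive cells held Bbc3 at 13.9 and 12.5 CPM against 11.8 and 13.4, overlapping (log2 0.06, SE 0.14, adjusted p = 0.879), and Bcl2l11 was even (0.01, SE 0.07, adjusted p = 0.961). At 4000 UMIs per cell the Bcl2l11 difference in butyrate cultures passed (0.42, adjusted p = 0.0048), as did that of Bcl2 (0.19, adjusted p = 0.0092), and the Bcl2l11 interaction did not (-0.30, adjusted p = 0.27). At 8000 UMIs only Mcl1 (0.15, adjusted p = 0.0308) and Bax (-0.20, adjusted p = 1.61e-05) passed, with 10.2% of genes called (4.01% higher, 6.18% lower). Without butyrate mouse 3 neither passed (adjusted p = 0.5 and 0.23), and without butyrate mouse 2 Mcl1 did not (0.15). The interaction was -1.0 for Bbc3 (SE 0.17, adjusted p = 1.72e-07), -0.76 for Bcl2l11 (SE 0.11, adjusted p = 2.40e-10), 0.81 for Bcl2l1 (SE 0.18, adjusted p = 7.18e-05), -0.23 for Mcl1 (SE 0.07, adjusted p = 0.0147) and 0.18 for Bax (SE 0.06, adjusted p = 0.0229), against 18.5% of genes called (9.23% positive, 9.25% negative). The Mcl1 and Bax interactions did not pass without control mouse 2, control mouse 3 or butyrate mouse 2 (adjusted p of 0.084 to 0.13 and of 0.072 to 0.38).

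Il7r-positive cells of control cultures were more often in G1: 32.6% and 33.6% against 10.0% and 9.44% of negative cells, and 22.8% and 21.8% against 15.1% and 16.8% in butyrate cultures. Before thinning, positive control cells held fewer UMIs (medians 16767 and 16374 against 24798 and 23333), and the part of this was not tested. Without G1 cells the control difference was 0.51 for Bbc3 (adjusted p = 0.0066) and 0.48 for Bcl2l11. The Bbc3 interaction then no longer passed (-0.43, adjusted p = 0.28), while those of Bcl2l11 (-0.55, adjusted p = 0.0047) and Bcl2l1 (0.82, adjusted p = 0.0034) did.

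Tcf7 encodes TCF1, a transcription factor that maintains memory precursors, and its UMI marked 361, 443, 148 and 165 thinned cells. Tcf7-positive control cells, too, were higher in Bbc3 (37.5 and 46.3 against 20.9 and 21.5 CPM; 0.99, SE 0.12, adjusted p = 1.57e-12) and Bcl2l11 (0.75, SE 0.09, adjusted p = 6.86e-12). Bid was at 3.41 and 4.41 against 10.9 and 11.2, 2.78-fold lower (log2 -1.48, SE 0.26, adjusted p = 5.84e-07), and Bcl2l1 was lower by 1.12 on the log2 scale (SE 0.18). In positive control cells Bid rested on only 10 and 16 UMIs and Bcl2l1 on 21 and 41, which limits their precision. At 4000 UMIs per cell the Bid difference did not pass (-0.74, adjusted p = 0.14). Positive control cells were also more often in G1, at 36.6% and 31.4% against 11.9% and 12.4% of negative cells. In butyrate cultures the G1 shares were 24.3% and 23.6% against 16.9% and 18.0%. Before thinning, positive control cells held fewer UMIs (medians 15324 and 15100 against 24188 and 22784). The parts of phase and of depth before thinning in the Tcf7 differences were not tested. In all, 4 of the genes were higher and 5 lower in positive control cells, with 34.2% of 11380 genes called (16.7% higher, 17.5% lower). The counts include Bcl2a1b (0.38) and Bak1, whose calls are less firm. With 1 library left out, the Bcl2a1b difference ranged from 0.20 to 0.61 and that of Bak1 from -0.66 to -0.18.

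Bcl2 separated the treatments in this class. In butyrate cultures Tcf7-positive cells held 390 and 384 CPM against 312 and 303 in negative cells, and in control cultures 361 and 302 against 396 and 354. The difference was 0.33 in butyrate (SE 0.06, adjusted p = 5.38e-06) and -0.18 in control cultures (SE 0.05, adjusted p = 0.000615), and the interaction was 0.51 (SE 0.07, adjusted p = 1.50e-08). With cells thinned to 4000 UMIs it was 0.27 (adjusted p = 0.34). The control difference failed without control mouse 3 (-0.14, adjusted p = 0.2). In butyrate cultures Bcl2l11 (0.46, SE 0.12, adjusted p = 0.00482) and Bax (-0.41, SE 0.07, adjusted p = 1.79e-05) also passed, which makes 2 genes higher and 1 lower, with 7.24% of genes called (2.46% higher, 4.78% lower).

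The other Tcf7 interactions that passed were those of Bcl2l1 (0.88, SE 0.30, adjusted p = 0.0446), Mcl1 (-0.32, SE 0.11, adjusted p = 0.0395) and Bcl2a1b (-0.78, SE 0.21, adjusted p = 0.00712), which with Bcl2 makes 2 genes in each direction against 9.45% of all genes (3.99% positive, 5.46% negative). None of these 3 passed at 4000 UMIs, and each was lost without control mouse 2 or butyrate mouse 2. The ratio of survival to death UMIs in Tcf7-positive cells was 1.86 and 1.41 in control and 1.67 and 1.65 in butyrate cultures.

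**Figure D5:**
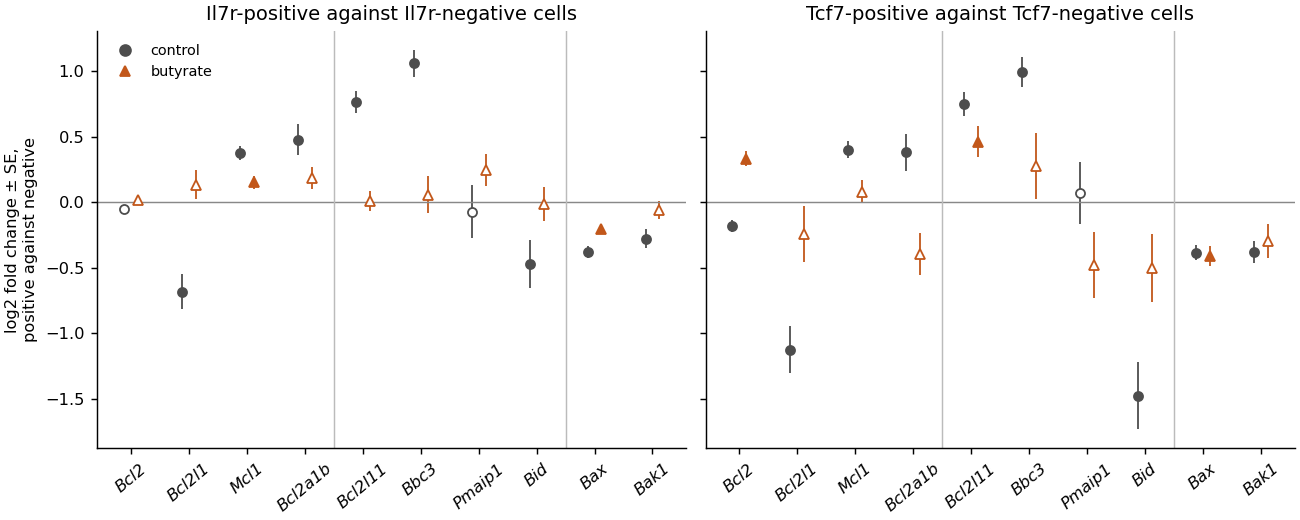
Log2 fold change with its SE of cells with an Il7r UMI (left) or a Tcf7 UMI (right) against cells without, in control (circles) and butyrate (triangles) cultures; open symbols have an adjusted p of 0.05 or more. In control cells Bbc3 and Bcl2l11 lie well above 0 in both panels. In butyrate cells most points of the Il7r panel lie near 0. Those of the Tcf7 panel spread more widely to both sides, with Bcl2l11 at 0.46, Bcl2 at 0.33 and Bcl2a1b at -0.40.

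Barcodes with 10% or more mitochondrial UMIs, which the cell filter leaves out and which can mark damaged cells, numbered 217, 295, 63 and 92. Bax was much lower in them (90.2, 109, 106 and 80.0 CPM against 223, 253, 306 and 309 in kept cells), by 1.5 on the log2 scale on average over both treatments (SE 0.09, adjusted p = 6.84e-62). Bcl2a1b was lower by 1.54 (SE 0.16, adjusted p = 8.08e-20), and Bid and Bak1 by 0.85 and 0.42. Bcl2 was higher, at 636, 556, 552 and 530 against 434, 391, 344 and 338 (0.60, SE 0.07, adjusted p = 1.35e-15), as was Bcl2l11 (0.26, SE 0.10, adjusted p = 0.0197). This makes 2 genes higher and 4 lower, with 38.5% of 12961 genes called (15.5% higher, 23.0% lower). By library totals alone Bak1 was at 0.00, Bcl2l1 and Mcl1 were higher by 0.36 and 0.35, and 5 genes were called higher and 2 lower. The Bcl2l11 call was lost without control mouse 3 (0.20, adjusted p = 0.25), butyrate mouse 2 (adjusted p = 0.14) or butyrate mouse 3 (adjusted p = 0.13), and without control mouse 3 or butyrate mouse 3 the count of genes higher was 1.

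The high-mitochondrial barcodes were shallower, with median UMIs of 9186, 9499, 8193 and 8496 against 21793, 20494, 24816 and 23628 in kept cells. The part of this depth in the differences was not tested. In free-RNA droplets Bax stood at 188, 225, 253 and 249 and Bcl2 at 252, 225, 179 and 203 unscaled CPM. These count mitochondrial UMIs in the total, whereas the levels of the barcodes are TMM-scaled with mitochondrial genes left out. On these unlike scales free RNA held more Bax and less Bcl2 than the barcodes. The part of free RNA in the differences was not tested. The treatment made no called difference to these steps: the interaction passed for none of the 10 genes by edgeR (2 at an unadjusted p under 0.05, Bax and Bcl2a1b), and 0.988% of genes were called.

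The rest of the pathway was read from lists of other genes, for all kept cells, where 36.0% of all genes tested rose and 35.7% fell. Of 15 other BCL2 family genes, 12 could be tested, of which 7 rose, 2 fell and 3 did not pass (median 0.54). Besides Bcl2a1d, Bik, a BH3-only gene, rose (2.59, 2.19, 6.53 and 6.04 CPM; log2 1.40, SE 0.11). Bcl2l15 rose from 5 and 10 UMIs to 86 and 100 (log2 3.54, SE 0.30). The survival gene Bcl2l2, which encodes BCL-W, was 2.94-fold lower (4.94, 5.27, 1.71 and 1.76; log2 -1.56, SE 0.12). Bcl2a1a (0 to 2 UMIs per library), Bcl2l10 (0 to 5) and Hrk (0, 0, 0 and 2) were too rare to test.

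Downstream of the mitochondrion, 7 of 20 genes rose and 10 fell (median -0.02). Cycs, cytochrome c itself, stood at 248, 250, 446 and 429 and rose by 0.81 (SE 0.04, adjusted p = 3.13e-10). The caspase inhibitor Xiap stood at 45.2, 41.8, 23.6 and 23.7 and fell by 0.88 (SE 0.05, adjusted p = 1.34e-09), and Birc3, which restrains death receptor signalling, fell by 1.34 (SE 0.08). Within G1 Cycs rose by 1.83 (SE 0.07).

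Of 12 p53 pathway genes, 9 rose and 3 fell (median 0.56), where 36.0% of all genes tested rose and 35.7% fell. Cdkn1a, the cell cycle inhibitor p21, stood at 50, 53.3, 212 and 228 CPM and was 4.26-fold higher (log2 2.09, SE 0.05), Zmat3 rose by 1.51 and Sesn2 by 0.67, and Gtse1, which is also in the G2M list, fell by 0.85. Among the 10 family members, Pmaip1 and Bax went with the genes that rose and Bbc3 did not, and Trp53 fell by 0.20 (SE 0.05). The G2M list as a whole moved in these cultures (4 of 52 genes higher, 45 lower), and its part in the lists here was not tested.

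Of 12 death receptor genes, 5 rose and 3 fell (median 0.02). The TNF receptor adaptor Tradd rose by 0.73 and the receptor gene Tnfrsf1b by 0.84, Tnfsf10, which encodes TRAIL, rose by 0.61, and Ripk1 fell by 0.61. Of 10 NF-kB genes, 3 rose and 6 fell (median -0.37): Bcl3 stood at 7.40, 6.56, 36.0 and 38.4 and rose by 2.42 (SE 0.07) and Nfkb1 rose by 0.82, whereas Nfkb2 fell by 0.90 and Rel by 0.95. Of 13 genes from IL-2 and IL-7 to STAT5, 8 rose and 3 fell (median 0.26). Il2ra, the high-affinity IL-2 receptor chain, stood at 123, 126, 317 and 319 and rose by 1.35 (SE 0.04), Pim1 rose by 1.03, Socs1 by 0.51, and Pim2 fell by 0.84. Of 9 genes for FOXO factors and other regulators of member abundance, 2 rose and 6 fell (median -0.33): Foxo1, whose protein can activate Bcl2l11 and Bbc3, rose by 1.15 (SE 0.04) and Hif1a by 0.61, while Usp9x, a deubiquitinase that stabilises MCL1, fell by 0.92 and Trib3 by 1.07. Over all genes tested 36.0% rose and 35.7% fell, with a median of -0.0079.

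Genes whose levels most resembled each member were named from the correlation of log2 levels over 12 sums of phase and library, among 4681 genes. The 12 points share 4 libraries, and these values are descriptions. For Bbc3 they were Paip2 (r = 0.997) and Zc3hav1 (0.994), for Bcl2l11 Prr13 (0.989) and Zfand6 (0.985), for Pmaip1 Fth1 (0.987) and Lta (0.985), and for Bid Fkbp11 (0.976). The survival genes gave mt-Nd5 (0.962) and Rragc (0.955) for Bcl2, Myo10 (0.921) and Commd1 (0.909) for Bcl2l1, Grap (0.992) and Txnip (0.986) for Mcl1, and Tspan13 (0.986) and Rhoc (0.984) for Bcl2a1b. Bax went most closely with Il12rb1 (0.983) and Sept9 (0.981), and Bak1 with Thoc6 (0.951) and Cltc (0.95). Bak1 and Bcl2l1 had the loosest partners of the 10.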

How the data were processed

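The deposited files hold raw UMI counts per gene and barcode, unfiltered, for 6794880 barcodes per library; per the labels' protocols libraries were made with 10x Genomics 3′ v3.1 chemistry, while Cell Ranger 4, Seurat 4.3 and the mm10 build are listed in the submitters' processing notes. Intron counting and annotation release were not given in the sources used here. GENCODE M21 held 32235 of the 32285 gene IDs. Cells were barcodes above 10% of the 99th percentile of the top 3000 barcodes, with at least 500 genes and under 10% mitochondrial UMIs; doublets were not removed. UMIs were summed per library, phase or class and fitted in R 4.3.3 by edgeR 4.0.16 (quasi-likelihood, TMM, filterByExpr); library was a block wherever classes of a library were compared. Thinned cells held 8000 UMIs; 54 to 112 shallower cells per library were left out there. Phases were scored with scanpy 1.11.5. DESeq2 1.42.0, library totals, other filters and thinning, and leaving out each library were alternatives. The model was also run on simulated counts with far fewer changed genes than were called here. Its outcome there is not reported and backs no result here. Intervals and permutation tests cover only these samples: nothing states separate cultures beyond the 2 mice. In fits between treatments, p-values measure the spread between these libraries. Where library was a block, differences in level between libraries are taken out. Those p-values measure only how much a class difference varies between libraries of a treatment. Same-numbered libraries come from 1 mouse; their deviations from group means correlated at 0.059 (Spearman 0.053) across 13487 genes, and the common coefficient of variation was 0.0405 without and 0.0336 with mouse as a block.

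The 10 members and all lists were chosen with earlier results of these data known. Named genes are the 10 members, up to 4 genes per other list with the smallest p in all kept cells, list genes at 0 in a group, and the 2 genes with the highest Pearson correlation with each member among those averaging 20 CPM or more. Some genes that this rule names are not reported here.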

Additional observations from a re-analysis of the deposited data

Results flagged for a closer look

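Many differences between cell states were not the same in control and butyrate cultures, by a test of the interaction (the difference in butyrate minus that in control, on the log2 scale, edgeR's quasi-likelihood test, adjusted over all genes). Each value rests on 2 libraries per treatment. For S against G1 cells the interaction was 1.62 for Bbc3, 0.82 for Bcl2a1b, 0.59 for Bcl2l11 and 0.43 for Mcl1, and it was -0.93 for Bcl2l1, -0.84 for Bid, -0.43 for Bax and -0.41 for Bak1. For G2M against G1 cells it was 1.52 for Bbc3, 0.72 for Bcl2l11, 0.35 for Bcl2a1b and 0.34 for Mcl1, and -1.0 for Bcl2l1, -0.76 for Bid, -0.32 for Bax and -0.24 for Bak1. The Bcl2a1b value for G2M did not pass by library totals alone (adjusted p = 0.12), with a 5% mitochondrial limit (0.075) or without control mouse 2 (0.059), control mouse 3 (0.14) or butyrate mouse 2 (0.13). Of all genes tested, 38.3% and 37.3% had such an interaction.

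For cells with an Il7r UMI against those without, the interaction was -1.0 for Bbc3, -0.76 for Bcl2l11 and -0.23 for Mcl1, and 0.81 for Bcl2l1 and 0.18 for Bax (18.5% of genes). For cells with a Tcf7 UMI it was 0.51 for Bcl2, 0.88 for Bcl2l1, -0.32 for Mcl1 and -0.78 for Bcl2a1b (9.45% of genes). Adjusted p-values ranged from 8.96e-15 for Bbc3 in G2M to 0.0446 for Bcl2l1 in the Tcf7 classes.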

How the results depend on the processing

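Of 1600 member values under alternatives, 1364 kept sign and call, 129 lost the call, 21 gained one and 86 changed sign, of which 68 passed in neither fit. The mouse block changed none of 40 calls (genes called higher 4958, lower 4931). The UMI window of 10000 to 20000, the 5% mitochondrial limit, the set without Mki67, Top2a or Pcna, the sets without G1 cells and the ratio without Bcl2 were chosen after seeing the data; causes of changes were not tested.

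With library totals alone, Bcl2l1 was at -0.059 in all cells and -0.15 within G2M, Bax at -0.0036 within S and 0.11 for G2M against G1 on average. In high-mitochondrial barcodes Bcl2l1 was then 0.36, Mcl1 0.35 and Bak1 0.0020, with 5 genes higher and 2 lower. That scaling also gave 4 genes higher (G2M average), 1 higher (G2M in butyrate), 4 higher (Il7r interaction) and 1 lower (Tcf7 interaction).

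In the UMI window, Bax was -0.19 (S against G1, average), -0.11 (S, control) and -0.23 (G2M, control), Bak1 -0.12 (S, average), Bid -0.12 (G2M, control) and Pmaip1 0.18 (G2M, average) and 0.20 (G2M, butyrate). Butyrate lowered 1 gene in each phase there. Genes higher than in G1 numbered 1 (S average), 2 (S control), 0 (G2M average) and 1 (G2M control), genes lower 5 (G2M butyrate), and negative G2M interactions 1.

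Thinning to 8000 UMIs gave Pmaip1 0.033 (G2M average), 1 gene higher in S and 1 in G2M on average, 2 in G2M of control cells, and 2 negative G2M interactions. The 5% limit gave 1 gene higher (G2M average). At 4000 UMIs Mcl1 was -0.027 (Il7r, butyrate) and 0.0091 (Tcf7 interaction), with 2 genes higher and 0 lower for Il7r in butyrate and 0 in each direction for the Tcf7 interaction. Without G1 cells, the Il7r difference in butyrate had 0 genes higher and its interaction 1 in each direction. With the high-mitochondrial limit at 20% (4 to 27 barcodes), Bcl2l11 was -0.26, with 0 genes higher and 1 lower. Without thinning, the shares of Bcl2 and Mcl1 were higher with butyrate by 1.00 and 1.27 percentage points, and 1 gene was lower. The survival to death ratio was 1.11 in control and 0.846 in butyrate cultures without Mcl1, 1.58 and 1.26 in thinned cells, 0.409 and 0.453 without Bcl2, and 1.05 in butyrate cultures with the other family genes.

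Leaving out 1 library at a time, with the lone library of a group assumed to vary like the others, gave 1 to 2 genes lower within G1, 0 to 2 higher for S and 1 to 2 for G2M against G1 on average, and 2 to 4 higher for G2M in control cells. Negative G2M interactions numbered 2 to 3. For Il7r, 0 to 1 genes were higher and 0 to 1 lower in butyrate, and 1 to 2 interactions were positive; for Tcf7, 1 to 2 interactions were positive and 0 to 1 negative. High-mitochondrial barcodes had 1 to 2 genes higher. In all kept cells 6 to 7 genes rose and 3 fell in each such fit.

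In G1, Pmaip1, Bid and Bcl2l1, and Bbc3 in butyrate cultures (138 and 144 UMIs), rest on few counts per library, which limits their precision. The control G1 sums were the smallest, at 28 and 33 UMIs for Pmaip1, 38 and 36 for Bid and 61 and 64 for Bcl2l1.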
